A study of Mus musculus with 6 samples.

Results

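The cytosolic ribosomal proteins are the protein components of the ribosomes that translate nuclear mRNA. Their genes were taken from the expression table by symbol, as every row named Rpl or Rps with a number and at most a trailing a, x or y, together with Rplp0, Rplp1, Rplp2 and Rpsa. This gave 76 of the 24421 genes in the table, 46 of the large subunit (60S) and 30 of the small subunit (40S), spread over 19 chromosomes. Of these, 75 were tested, and Rpl26 was listed at 0 in every library.

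The study sequenced poly(A) RNA of embryonic mouse hearts, taken at E18.5, shortly before birth, in 6 libraries. Of these, 3 are labelled wildtype and 3 are labelled Gas2l3 -/-, without functional Gas2l3, and all are on the C57/Bl6 strain with no treatment named. The labels do not describe the deleted stretch of Gas2l3, and do not say whether each library is a separate embryo or a pool, so p-values cover only the spread among these libraries, which may be technical. The question asked of the data was how ribosomal protein transcripts compare between the groups, and what libraries of the same replicate number share. Values are FPKM, the fragments of a gene scaled for its length and for the depth of the library.

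A ribosome carries a single copy of most of these proteins, so their genes are expressed together and at high levels in growing tissue. The mRNAs begin with a run of pyrimidines, the terminal oligopyrimidine (TOP) tract, through which mTOR signalling and the RNA-binding protein Larp1 control their translation. Late embryonic cardiomyocytes are still growing and dividing, and need ribosomes to build contractile protein. Several of the genes are mutated in Diamond-Blackfan anaemia, a human disorder of red cell production that can include heart malformations.

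Promoter windows of RefSeq on GRCm38.p6, from 250 bases before to 50 after the start, were found for 56 members, which have 66 windows. Pyrimidine-rich letters were looked for on both strands, and none of the motifs searched contains another. CTCTTTCC was in 19.7% of the members' windows and in 3.12% of all 32851, CCTTTC in 43.9% and 23.8%, and CTTTTC in 25.8% and 21.8%. Read forward after the start only, CTCTTTCC was in 12.1% and 0.189%, CCTTTC in 15.2% and 1.73%, and CTTTTC in 10.6% and 1.67%. GGAAG, in the core of ETS factor sites, was in 92.4% and 71.4%, CACGTG, the E-box that Myc binds, in 12.1% and 7.15%, and TATAAA in 9.09% and 13.6%. A match is a description of letters, not of a working site. The 40 bases before and 30 after the start are shown for 5 members whose values are described here, chosen because a pyrimidine motif lies in this stretch, where a TOP tract would be. Capitals mark that motif. The windows are Rplp2 at chr7:141447611-141447680 (plus strand), Rpsa at chr9:120127726-120127795 (plus), Rps27 at chr3:90213619-90213688 (minus), Rpl34 at chr3:130730308-130730377 (minus) and Rpl28 at chr7:4792925-4792994 (plus).
Rplp2: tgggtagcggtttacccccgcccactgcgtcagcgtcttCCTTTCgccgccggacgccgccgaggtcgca
Rpsa: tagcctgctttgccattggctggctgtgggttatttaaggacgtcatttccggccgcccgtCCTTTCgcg
Rps27: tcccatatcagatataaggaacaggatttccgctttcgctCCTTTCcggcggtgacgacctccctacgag
Rpl34: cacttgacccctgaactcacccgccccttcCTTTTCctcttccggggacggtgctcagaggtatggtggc
Rpl28: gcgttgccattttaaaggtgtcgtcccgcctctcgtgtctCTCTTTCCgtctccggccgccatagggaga
In Rpl28 the marked motif begins with the first base of the mRNA, in Rps27 with the first base as well, and in Rplp2 just before it. In these genes the run of pyrimidines around the motif begins further upstream, before the start. In Rpsa the motif lies further into the mRNA. In Rpl34 the motif lies before the start, while the pyrimidines around it run across the start.

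Recovered reads ranged from 3414257 to 7732674 per library. The targeted gene Gas2l3, whose product links microtubules and actin, had 10.3, 4.12 and 2.48 FPKM in the 3 wildtype-labelled replicates, in order, and 4.03, 2.99 and 3.06 in the 3 knockout-labelled ones. Wildtype-labelled replicate 3 was below every knockout-labelled library, so the groups overlapped and Gas2l3 did not check the labels, with a log2 fold change of -0.47 (SE 0.44) at a limma adjusted p of 0.966. Reads were summed over the whole gene, so a transcript that lacks only some exons would still be counted. All 10 cardiomyocyte markers were detected, with Tnnt2 between 5404 and 8380 FPKM and a summed level between 31304 and 53029.6 in the 6 libraries. Their log2 fold changes, knockout-labelled minus wildtype-labelled, were all below 0, with a median of -0.41 against -0.01 for all genes tested. Without wildtype-labelled replicate 3 that median was -0.21 (1 above, 9 below 0). The fibroblast, endothelial, macrophage and smooth muscle lists had medians of 0.27, 0.01, 0.23 and 0.07, and the 3 tested erythroid genes 0.42. Without that library these were 0.43, 0.39, 0.40, 0.41 and 0.21. The groups did not overlap, on the higher side, for 3 macrophage, 1 fibroblast and 1 endothelial marker (background 5.02%). In the main fit 0 of these markers were called. Of 9 erythroid rows, all 6 globin genes were listed at 0, while Alas2 ranged from 24.9 to 109 FPKM. Since these are bulk hearts, fewer cells of a type and less RNA per cell cannot be told apart.

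Ribosomal protein transcripts were among the most abundant in these hearts. The median member had a mean level of 700.4 FPKM over the 6 libraries, against 10.4 for all 12121 genes tested, 71 members were above 100 FPKM, and 24 were among the 100 genes with the highest means. Rplp1, a protein of the P stalk that recruits elongation factors, was the highest, with 1416, 4442 and 9789 FPKM in the 3 wildtype-labelled libraries, in order of number. Its knockout-labelled libraries had 1857, 4362 and 2024 FPKM, so both replicates 1 and knockout-labelled replicate 3 were low. Next came Rps14 of the 40S platform, Rps15 of the 40S head and Rpl41, the shortest ribosomal protein, with means of 2555, 1706 and 1679 FPKM. Among the members tested, 3 stood far below the rest. Where 3 values are set against 3 from here on, the first are wildtype-labelled replicates 1, 2 and 3 and the others knockout-labelled replicates 1, 2 and 3. Rps27 had 1.40, 5.74 and 6.30 FPKM in the wildtype-labelled libraries and 2.16, 2.27 and 3.03 in the knockout-labelled ones. Rpl30 had 0.854, 6.11 and 2.63 against 1.49, 4.76 and 5.10 FPKM, and Rpl34 had 3.88, 5.36 and 10.04 against 6.31, 5.95 and 4.01. Ribosomal protein genes as a class have many near-identical processed copies in the mouse genome, and how reads that match several copies were counted is not given in the sources used here, so these low values and the 0 of Rpl26 are uncertain. The relative Rps27l, which the symbol rule leaves out, had 165, 520.5 and 331 against 258, 612 and 336 FPKM. Of 7 rows for pseudogenes of these genes, 2 were listed at 0 and 3 were tested, of which Rpl14-ps1 was the highest, with 5.37, 8.70 and 7.32 against 7.56, 11.5 and 6.04 FPKM.

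**Figure D1:**
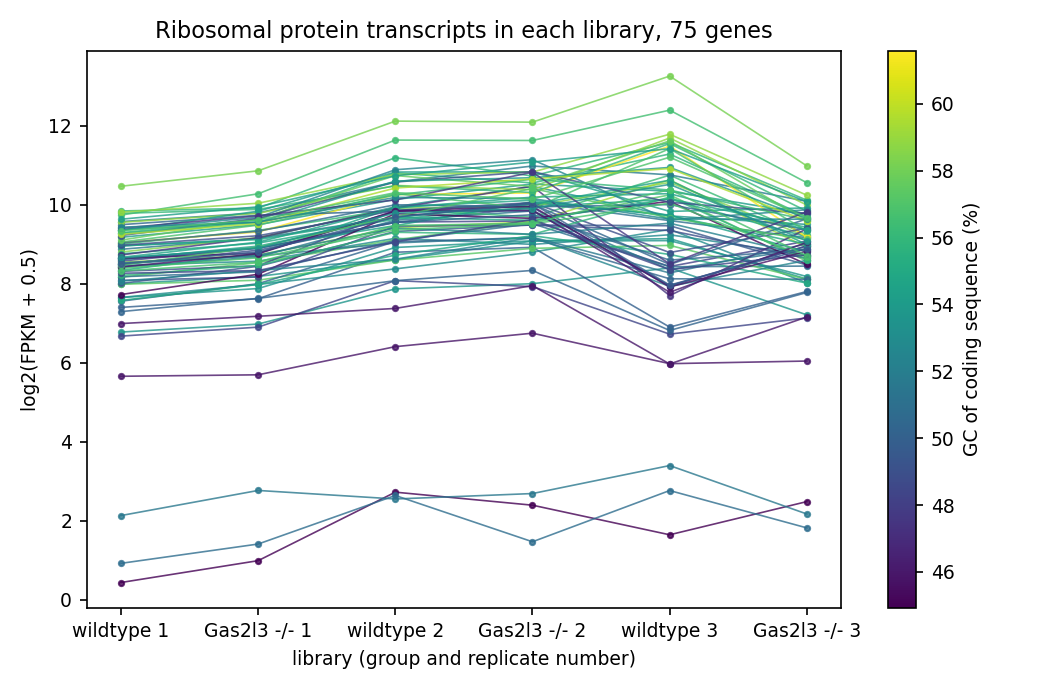
Level of each of the 75 tested ribosomal protein genes, as log2(FPKM + 0.5) on the vertical axis, in the 6 libraries on the horizontal axis; each line is a gene, coloured by the GC share of its coding sequence in percent. Most lines are low in both replicates 1, high in both replicates 2, and spread apart by GC share in wildtype-labelled replicate 3.

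Members varied together from library to library, and libraries numbered 1 and 2 did so alike in both groups. Together, ribosomal protein genes took 2.69%, 5.20% and 5.004% of the reads in the wildtype-labelled replicates 1, 2 and 3. In the knockout-labelled replicates 1, 2 and 3 they took 3.22%, 5.59% and 3.46%. Both replicates 1 were low and both replicates 2 were high, while the replicates 3 were apart. The median member stood at 391, 825 and 796 FPKM in the wildtype-labelled libraries and at 478, 956 and 514 in the knockout-labelled ones.

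All 75 members were higher in wildtype-labelled replicate 2 than in replicate 1, by a median log2 difference of 1.06 (2.09-fold), where 51.4% of all genes tested were higher. In the knockout-labelled libraries 74 of 75 were higher in replicate 2 than in replicate 1, by a median of 1.02 (2.03-fold), where 52.7% of all genes were; the exception was Rpl34. Replicate 2 was above replicate 1 in both groups for 74 members (background 39.7% of all genes tested). Both replicates 2 were above wildtype-labelled replicate 1 and knockout-labelled replicates 1 and 3 for 72 members, 96% of those tested (background 25.2%). Within number 1 all 75 members were higher in the knockout-labelled than in the wildtype-labelled library, by a median of 0.27 on the log2 scale, as were 51.2% of all genes. The replicates 3 differed from each other. In the wildtype-labelled libraries 58 members were higher in replicate 3 than in replicate 1, with differences from -1.03 for Rpl7 to 2.79 for Rplp1. In the knockout-labelled libraries 63 members were higher in replicate 3 than in replicate 1, but by a median of only 0.15, and 73 were lower than in replicate 2.

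**Figure D2:**
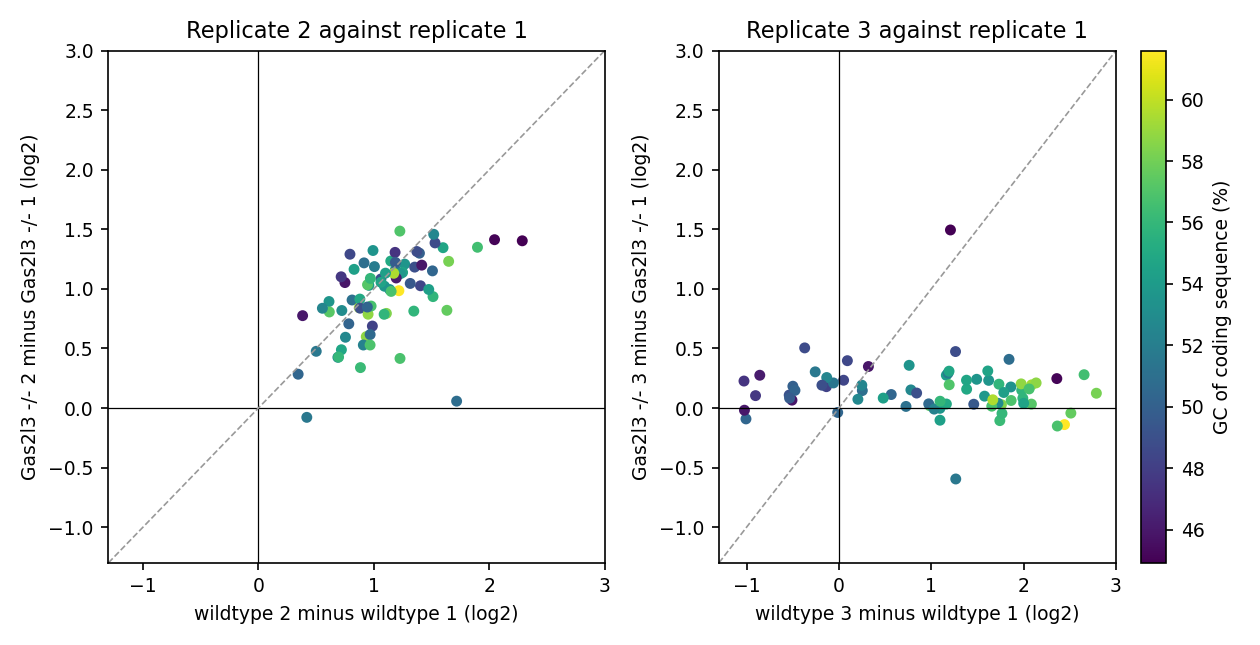
Log2 differences of the 75 members between replicates of the same group, wildtype-labelled on the horizontal and knockout-labelled on the vertical axis, for replicate 2 minus replicate 1 (left) and replicate 3 minus replicate 1 (right); the dashed line marks equality and colour gives coding GC in percent. On the left, 74 of 75 points lie above 0 on both axes; on the right the horizontal spread runs from -1.03 to 2.79 while most vertical values are near the median of 0.15.

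As a deviation from each gene's own mean over the 6 libraries, the median member shifted by -0.71, 0.35 and 0.46 on the log2 scale in wildtype-labelled replicates 1, 2 and 3, and by -0.41, 0.60 and -0.26 in the knockout-labelled ones. Over all genes tested the median lay between -0.01 and 0.01 in every library. In wildtype-labelled replicate 1 all 75 members were below their own mean and in knockout-labelled replicate 1 72 were, whereas 74 and 73 were above it in the replicates 2. The subunits had similar shifts: the 60S shifts were -0.67, 0.33, 0.46, -0.39, 0.61 and -0.26, and the 40S shifts were -0.74, 0.39, 0.46, -0.42, 0.60 and -0.25, in the same order of libraries.

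The size of the difference varied among members. The largest excess of the replicates 2 over the other 4 libraries was that of Rpl7, a 60S protein, at 1.45 on the log2 scale, followed by Rpl21, the X-linked Rpl36a, and Rps27a, which is made as a fusion with ubiquitin, at 1.43, 1.43 and 1.42. Rps27a, for example, had 344, 917 and 241 FPKM in the wildtype-labelled libraries and 433, 995 and 453 in the knockout-labelled ones, with both replicates 2 above all others. The smallest excess was that of Rpl34, at 0.00, followed by Rplp0, Rpl8, Rpl28 and Rpl7a, at 0.13, 0.18, 0.20 and 0.23. Rpl8, which lies near the peptidyl transferase centre, had 751, 1436 and 3302 against 879.8, 1333 and 1018 FPKM, so its highest library was wildtype-labelled replicate 3 and not a replicate 2. The other 4 libraries include that one, so the order above depends on it too. Without both replicates 3, the log2 excess of replicate 2 over replicate 1 was 1.25 for Rpl7. For Rpl21, Rpl36a and Rps27a it was 1.35, 1.46 and 1.31, but 1.85 for the low Rpl30 and 1.73 for Rpl39. It was 0.17, 0.56, 0.77, 0.61 and 0.60 for Rpl34, Rplp0, Rpl8, Rpl28 and Rpl7a, and 0.31 for Rpl4.

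A limma fit with group and replicate number, with an F test over the number terms, called 0 of 75 members at a Benjamini-Hochberg adjusted p under 0.05 (background 0.0%). At an unadjusted p under 0.05 it counted 17 members, against 12.5% of all genes tested. The result turned on the replicates 3. Without wildtype-labelled replicate 3 the number was called for 59 members (background 10.9%), without knockout-labelled replicate 3 for all 75 (background 55.9%), and without both for 69 (background 22.3%). With each of the other 4 libraries left out in turn it was called for between 0 and 2 members (background between 0.866% and 2.74%). Each of these fits leaves 1 residual degree of freedom. With 1 library left out, the remaining library of that number is fitted exactly and is assumed to vary like the others. Its own deviation then counts as an effect of the number. The counts of 59 and 75 therefore do not by themselves measure a shift shared by libraries of the same number. Without both replicates 3, the fit compares numbers 1 and 2 only, each with a library in both groups.

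**Figure D3:**
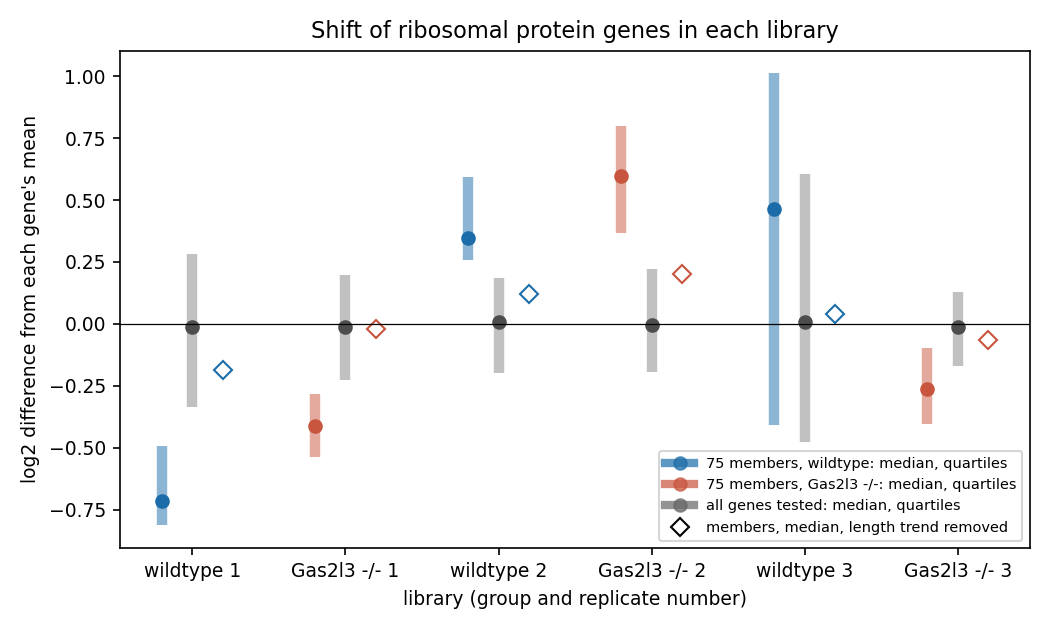
Median and quartiles of the log2 difference from each gene's mean over 6 libraries, for the 75 members (blue wildtype-labelled, red knockout-labelled) and for the 12121 genes tested (grey), with the members' median after removal of the length trend of each library (open diamonds). The members lie below 0 in both replicates 1 and above 0 in both replicates 2, the grey medians lie near 0, and the diamonds lie between -0.19 and 0.20.

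Members share short mRNAs, a feature the symbol rule did not use. Their median length was 698 bases against 2855 for all genes tested, of which 4.10% were shorter than the median member. Across all genes tested, deviations correlated with log length at r = 0.35 and 0.34 in the replicates 1 and at -0.31 and -0.42 in the replicates 2, as a description over genes that share their library and depth. When the trend with length was removed from each library, the members' shifts became -0.19, 0.12 and 0.04 in the wildtype-labelled libraries and -0.02, 0.20 and -0.07 in the knockout-labelled ones. Replicate 2 was then above replicate 1 for 66 members in the wildtype-labelled and 58 in the knockout-labelled libraries. The long transcript of Ttn, which encodes the giant sarcomere protein titin, ran the opposite way. Ttn had 25.6, 3.71 and 15.7 FPKM in the wildtype-labelled and 15.04, 7.62 and 10.003 in the knockout-labelled libraries. Malat1, a long nuclear RNA, had 147, 10.8 and 35.3 against 163, 43.3 and 77.003 FPKM, highest in both replicates 1 and lowest among each group's libraries in replicate 2. The part of RNA quality or library preparation in these shifts was not tested.

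Wildtype-labelled replicate 3 divided the members by base composition. The standard deviation of its deviations over members was 0.83 on the log2 scale, against 0.21 to 0.31 in the other 5 libraries. Over all genes tested it was 0.73, against 0.29 to 0.47 in the others. Wildtype-labelled replicate 3 was the highest library for 37 members and the lowest for 17. Its deviation correlated with the GC share of the coding sequence at r = 0.76 over 75 members. In the other libraries that r lay between -0.71 and -0.38. The trend was not particular to the members. With the GC share of the transcript, r in wildtype-labelled replicate 3 was 0.70 over all genes tested and 0.53 over the members. Over all genes it was -0.47 and -0.48 in wildtype-labelled and knockout-labelled replicate 1. It was -0.07, -0.13 and -0.16 in wildtype-labelled replicate 2 and knockout-labelled replicates 2 and 3. These points share their library and the mean they are measured from. Coding GC ranged from 44.9% to 61.6%, with a median of 53.5%. The 37 members above that median shifted by 0.94 in wildtype-labelled replicate 3, and the 38 at or under it by -0.41. Both sets shifted in the same direction in other libraries, at -0.77 and -0.50 in wildtype-labelled replicate 1 and at 0.46 and 0.68 in knockout-labelled replicate 2. The GC share at the last position of each codon alone gave a lower r of 0.49. Rpl39, an exit tunnel protein with a coding GC of 45.1%, stood apart from the trend, with 211, 875 and 1087 FPKM in the wildtype-labelled and 302, 805 and 359 in the knockout-labelled libraries. Endothelial markers also stood apart in wildtype-labelled replicate 3. These 7 genes had a median shift of 0.91 there and a summed level of 741 FPKM, against 329 to 489 FPKM in the other libraries. Not every endothelial gene followed its list: in that library the receptor Tek, at 17.4 FPKM, and the surface protein Emcn, at 50.8 FPKM, were below every knockout-labelled library. The 10 cardiomyocyte genes had a median shift of 0.61 there, and of -0.55 in knockout-labelled replicate 2. In wildtype-labelled replicate 3 the macrophage and smooth muscle lists shifted by 0.46 and 0.45, the fibroblast list by 0.11 and the erythroid one by -0.70. Each of these lists shifted further in another library. The macrophage list shifted by -0.54 in wildtype-labelled replicate 1 and the smooth muscle list by -0.57 in wildtype-labelled replicate 2. The fibroblast list shifted by 0.33 in knockout-labelled replicate 3 and the erythroid one by 1.38 in knockout-labelled replicate 1. The part of these cell types in the members' values was not tested.

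The first 120 coding bases of members under and above the median coding GC are shown with G and C in capitals. Rpl7 (coding GC 47.4%) and Rps4x, the X-linked copy of a 40S protein (47.7%), were low in wildtype-labelled replicate 3. Rpl36 (61.6%) was high there. The bases are spliced from the longest coding model of GENCODE M21 on GRCm38, in genes at chr1:16101295-16104662 (minus strand), chrX:102184941-102189394 (minus) and chr17:56613416-56614243 (plus).
Rpl7: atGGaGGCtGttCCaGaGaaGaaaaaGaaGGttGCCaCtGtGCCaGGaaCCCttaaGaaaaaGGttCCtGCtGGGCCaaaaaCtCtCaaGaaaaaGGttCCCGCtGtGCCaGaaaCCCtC
Rps4x: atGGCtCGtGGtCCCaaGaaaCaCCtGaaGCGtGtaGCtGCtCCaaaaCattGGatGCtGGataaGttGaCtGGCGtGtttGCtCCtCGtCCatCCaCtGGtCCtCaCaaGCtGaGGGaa
Rpl36: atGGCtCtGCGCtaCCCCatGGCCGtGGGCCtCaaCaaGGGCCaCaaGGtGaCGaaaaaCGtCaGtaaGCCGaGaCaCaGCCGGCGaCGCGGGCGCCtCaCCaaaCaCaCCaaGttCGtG
In these stretches 49.2%, 52.5% and 61.7% of bases are G or C, in that order. Of the 40 codons in each stretch, 19 in Rpl7, 18 in Rps4x and 34 in Rpl36 end in G or C.

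**Figure D4:**
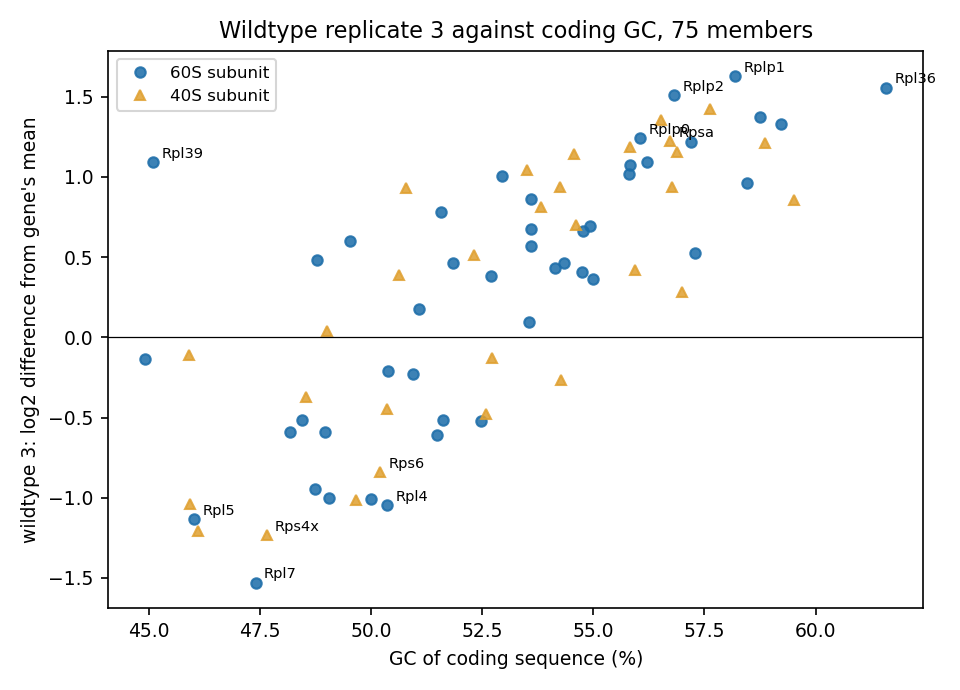
Deviation of wildtype-labelled replicate 3 from each gene's mean over 6 libraries (log2, vertical axis) against the GC share of the coding sequence in percent (horizontal axis), for the 75 members; circles are 60S and triangles 40S genes. Values range from -1.53 for Rpl7 to 1.63 for Rplp1, with Rpl39 outside the trend at 45.1% GC.

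Between genotypes, no ribosomal protein gene differed beyond the spread between replicates. limma with Benjamini-Hochberg adjustment over 12121 genes called 0 of 75 members higher and 0 lower (background 0.0% in each direction), and 0 members had an unadjusted p under 0.05, against 3.25% of all genes tested. Under the alternatives that unadjusted count rose to 8 members, all lower, without wildtype-labelled replicate 1 (12.3% of all genes), to 1 higher without wildtype-labelled replicate 2 (4.23%), to 1 higher with the replicate number as a block, and to 4 higher with that block and GC and length trends removed together (Rpl7, Rps4x, Rpl6 and Rpl5; 10.6% of all genes), and it was 0 in the others. The groups overlapped for every member, where 9.76% of all genes had groups that did not overlap, 5.02% higher and 4.74% lower in the knockout-labelled libraries. That count rested on single libraries: without wildtype-labelled replicate 2 the groups of 20 members did not overlap, all higher (background 11.4%), and without wildtype-labelled replicate 1 those of 17, all lower (background 17.4%). With GC and length trends removed, the groups of 5 members did not overlap on the higher side (Rpl19, Rpl3, Rpl6, Rpl32 and Rps4x; background 7.12%) and that of Rpl41 on the lower side (background 7.61%), and none passed the test. The members' median log2 fold change, knockout-labelled minus wildtype-labelled, was -0.09, with 32 above and 43 below 0, and that of all genes was -0.01. After rescaling of every library to the same total the members' median became 0.09, with 43 above and 32 below 0, while the median of all genes moved to 0.15. After quantile normalization the members' median was 0.07 (42 above, 33 below 0), against -0.02 for all genes, and with the length trend removed it was 0.03 against 0.00481. With GC and length trends removed it was 0.10 (45 above, 30 below 0) against 0.02. The members' median was thus below that of all genes with the deposited and the common scaling, and above it after those 3 corrections. Wildtype-labelled replicate 3 also set many signs: without it 33 of the 75 fold changes had the opposite sign, 30 of them going from below to above 0. The 95% intervals of the fold changes had a median half-width of 1.17 on the log2 scale, and for 41 members they included a doubling (a log2 fold change of 1). In the authors' deposited table, 0 of 72 members with an adjusted p were called (background 0.0735%), and the smallest adjusted p was 0.998. Fold changes in the authors' deposited table ran from -0.58 to 0.47, a narrower range than in the FPKM fit, and 74 of 75 had the same sign as those of the FPKM fit.

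**Figure D5:**
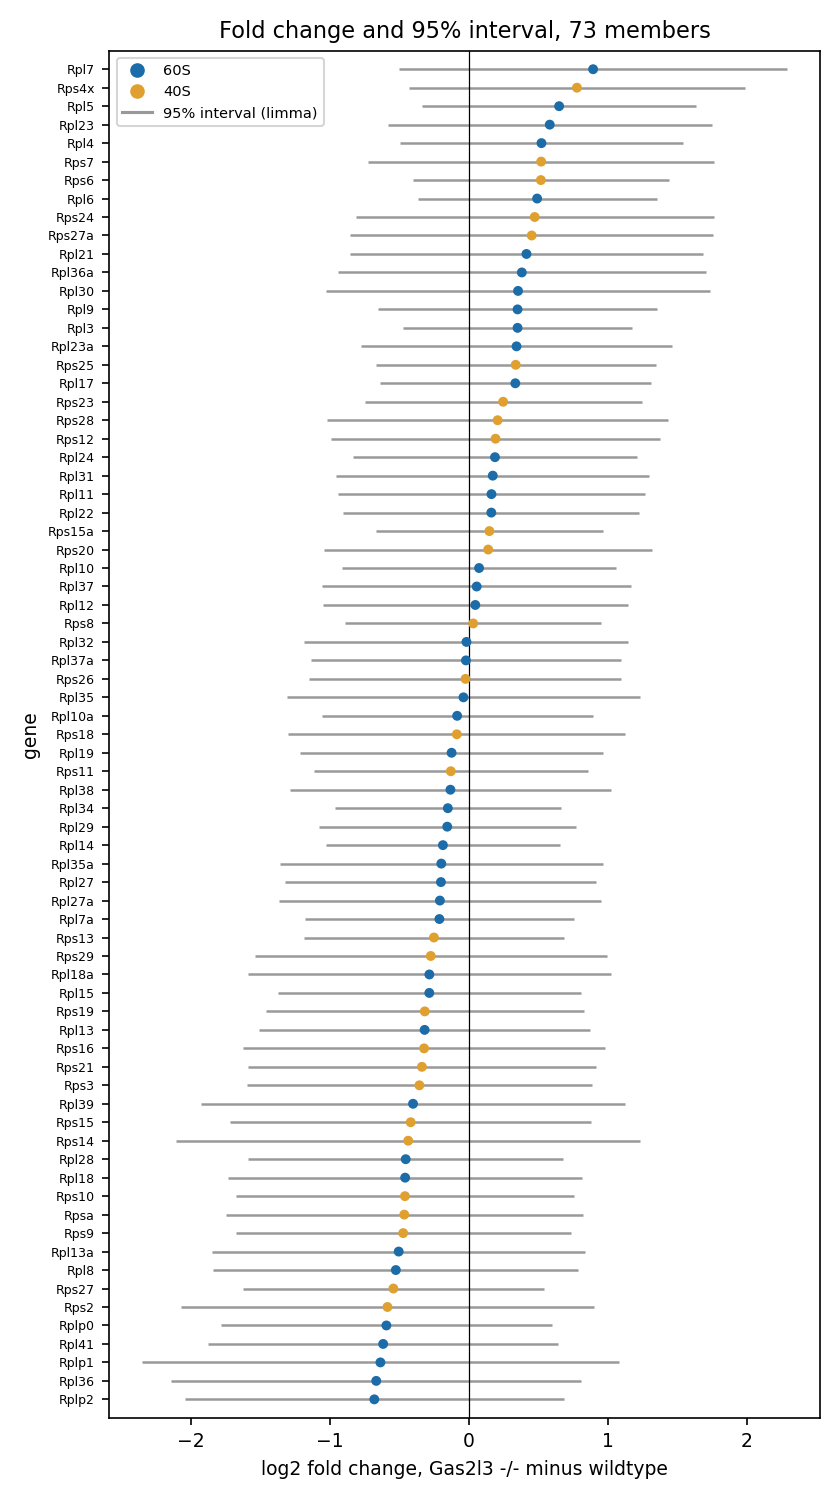
Log2 fold change, knockout-labelled minus wildtype-labelled, with its 95% interval from limma (horizontal axis) for 73 of the 75 members (vertical axis, ordered by fold change), blue for 60S and orange for 40S genes. Every interval crosses 0, and fold changes run from -0.68 for Rplp2 to 0.89 for Rpl7.

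By their place in the ribosome, the members with the smallest p on the higher side were 60S and 40S proteins alike. Rpl7 had 424, 963 and 207 FPKM in the wildtype-labelled and 573, 1419 and 671 in the knockout-labelled libraries. Its wildtype-labelled replicate 3 was the lowest library and its knockout-labelled replicate 2 the highest, and the groups overlapped. Its log2 fold change of 0.89 (SE 0.61) had a limma adjusted p of 0.966, and without wildtype-labelled replicate 3 it was 0.35. With the replicate number as a block, to set libraries of the same number against each other, Rpl7 was the only member with an unadjusted p under 0.05 (background 6.01%), at 0.049, its limma adjusted p was 0.782, and 0 members were called. Rps4x had 678, 1114 and 362 against 843, 1809.5 and 906 FPKM and Rps6, the target of S6 kinase, had 156, 269.7 and 112 against 198, 323 and 219. In both genes wildtype-labelled replicate 3 was again the lowest. Their log2 fold changes were 0.78 (SE 0.53) and 0.52 (SE 0.41), and that of Rpl6 was 0.49 (SE 0.38), all at a limma adjusted p of 0.966. Without wildtype-labelled replicate 3 the values for Rps4x, Rps6 and Rpl6 were 0.36, 0.23 and 0.36.

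Rpl5 and Rpl11 bind 5S rRNA and, when free of the ribosome, the p53 regulator Mdm2. Rpl5 had 127, 166 and 62.1 FPKM in the wildtype-labelled and 144, 247 and 142 in the knockout-labelled libraries. Rpl11 had 496, 988 and 841 against 565, 1414 and 725. For both genes knockout-labelled replicate 2 was the highest library, while the lowest was wildtype-labelled replicate 3 for Rpl5 and replicate 1 for Rpl11. Log2 fold changes were 0.65 (SE 0.43) and 0.16 (SE 0.48), neither passed the test, and without wildtype-labelled replicate 3 they were 0.25 and 0.25. Over the 9 Diamond-Blackfan anaemia genes measured, which include both, the median log2 fold change was 0.16, with 5 above and 4 below 0, and without that library it was 0.11 (7 above, 2 below). Rps19, the gene most often mutated in that disorder, had 334, 659 and 1055 against 403, 731 and 408 FPKM, highest in wildtype-labelled replicate 3. Rps24 had 399, 914 and 220.0 against 437, 932 and 529 FPKM, lowest in that same library. The groups overlapped in both genes.

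On the lower side stood the P stalk, Rplp0, Rplp1 and Rplp2, which together form the arm of the 60S subunit that binds elongation factors. Rplp0, its base, had 880.2, 1425 and 2996 FPKM in the wildtype-labelled and 943, 1269 and 914 in the knockout-labelled libraries. Rplp2, the partner of Rplp1, had 531, 1245 and 2741 against 716, 955 and 644. In all 3 genes wildtype-labelled replicate 3 was the highest library, and the groups overlapped. Log2 fold changes were -0.59 (SE 0.52), -0.64 (SE 0.75) and -0.68 (SE 0.60), with a limma adjusted p of 0.966. Without wildtype-labelled replicate 3 they became -0.12, 0.02 and -0.10. Rpl41 and Rpl36 had fold changes of -0.62 (SE 0.55) and -0.67 (SE 0.65) and became -0.26 and -0.05 without it. Rpsa, a 40S protein also known as the laminin receptor, had 319.9, 711 and 1336 FPKM in the wildtype-labelled and 374, 738 and 418 in the knockout-labelled libraries. Its wildtype-labelled replicate 3 was the highest, and the log2 fold change was -0.46 (SE 0.56), and 0.03 without that library. Rps27, also among the smallest p on the lower side, had a log2 fold change of -0.54 (SE 0.47) at a few FPKM, and -0.22 without it.

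Among the other groups of members, the 14 proteins of the 40S head had a median log2 fold change of -0.16 (6 above, 8 below 0) and the 8 of the polypeptide exit tunnel, through which the new chain leaves, had 0.17 (5 above, 3 below). Without wildtype-labelled replicate 3 these medians were 0.11 (14 above, 0 below) and 0.13 (7 above, 1 below). Rpl4, which lines the narrowest stretch of that tunnel, had 722, 916 and 359 against 851, 1036 and 799 FPKM, and Rpl35, at its mouth, had 323, 981 and 843 against 435, 1108 and 512. Rpl4 was lowest in wildtype-labelled replicate 3, whereas Rpl35 was high there and in both replicates 2. In the head, Rps3, which sits at the mRNA entry, had 402, 885 and 1463 against 479, 956 and 542 FPKM, and Rps20 had 596, 1525 and 1069 against 806, 1831 and 879.6. The groups overlapped in each of these 4 genes. The X-linked members Rpl10, Rpl36a, Rpl39 and Rps4x had log2 fold changes of 0.07, 0.38, -0.40 and 0.78, none passed the test, and without wildtype-labelled replicate 3 they were 0.18, 0.00, 0.04 and 0.36. The 37 members above the median coding GC had a median of -0.32 (5 above, 32 below 0). The 38 at or under it had one of 0.26 (27 above, 11 below). Without wildtype-labelled replicate 3 these were 0.0812 and 0.13. Over all 75 members, fold changes correlated with coding GC at r = -0.72, and without wildtype-labelled replicate 3 at -0.24. The standard deviation of the 75 fold changes was 0.39 with that library and 0.13 without it, and the median without it was 0.11, with 59 members above and 16 below 0. Within replicate numbers, the median difference was 0.27 in number 1, 0.15 in number 2 and -0.73 in number 3, with 75, 54 and 24 members higher in the knockout-labelled library. After loess removal of each library's trends with GC content and length these medians were 0.16, 0.07 and 0.06.

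Genes that serve the same pathway were read from lists. Of 21 TOP-type translation genes outside the rule, such as elongation factors, 0 were called; 10 were above and 11 below 0, with a median log2 fold change of -0.000122. Tpt1, a growth-related protein with a TOP mRNA, had 1197, 2832 and 640.1 FPKM in the wildtype-labelled and 1566, 3289 and 1699 in the knockout-labelled libraries, low in wildtype-labelled replicate 3 and high in both replicates 2. Eif3e, a subunit of initiation factor 3, had 102, 119 and 29.6 against 125, 211 and 113 FPKM, and its fold change of 1.01 (SE 0.54) did not pass the test. Fau, which encodes a 40S protein fused to a ubiquitin-like one, had 268, 498 and 1190.3 against 314, 478 and 303 FPKM and was highest in wildtype-labelled replicate 3. The whole list shifted by -0.31, 0.20, -0.19, -0.13, 0.12 and -0.10 in wildtype-labelled and then knockout-labelled replicates 1, 2 and 3. Rps3a1, the mouse gene for a 40S protein whose symbol the rule does not match, had 448, 936 and 211 against 556, 1264 and 657 FPKM, again high in both replicates 2.

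Of 30 ribosome assembly genes, 0 were called, 15 were above and 15 below 0, and the median was 0.00. The groups did not overlap for 1 on the higher side, Wdr12, and for 3 on the lower side, Nop2, Gar1 and Nolc1, beside 5.02% and 4.74% of all genes. Wdr12, which acts with Pes1 and Bop1 in 60S assembly, had 5.85, 7.29 and 3.89 FPKM in the wildtype-labelled and 7.57, 11.2 and 8.75 in the knockout-labelled libraries. Its groups did not overlap, but the fold change of 0.67 (SE 0.29) had a limma adjusted p of 0.966. Bop1 itself had 14.8, 21.8 and 40.4 against 15.2, 15.9 and 15.9 FPKM. The nucleolar Npm1 had 140.2, 185 and 63.7 against 168, 234 and 161 FPKM. In neither gene did the difference pass the test. The 12 genes of RNA polymerase I and its factors had a median of 0.02 (6 above, 6 below 0), with Ubtf, which opens ribosomal DNA, at 32.8, 36.2 and 39.3 against 29.9, 32.7 and 31.98 FPKM. The 17 genes that control ribosomal protein output had a median of -0.13 (5 above, 12 below 0). Among them Eif4ebp1, the mTOR target that holds back initiation, had 218, 293 and 721 against 231, 297 and 226 FPKM, with wildtype-labelled replicate 3 far above the rest, and Rps6kb2, an S6 kinase, had 22.7, 20.95 and 24.6 against 16.4, 18.2 and 19.3. The groups of Ubtf, Rps6kb2 and Rptor, the mTOR partner that binds its targets, did not overlap, all being lower in the knockout-labelled libraries, and none passed the test. These were the only such genes of the polymerase I and control lists. Lists of assembly, polymerase I and control genes had median library shifts between -0.18 and 0.14 on the log2 scale, while those of the members ran from -0.71 to 0.60. With the length trend removed the members' shifts ran from -0.19 to 0.20, and the lists were not corrected in this way. The 10 tested close relatives and fusion genes outside the rule had uncorrected shifts from -0.51 to 0.31.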

How the data were processed

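Per the labels' protocols, heart RNA was treated with DNase, enriched for poly(A) and made into NEBNext Ultra libraries, with 13 cycles of PCR. FastQC, DESeq2 and the build mm10 are named in the submitters' processing notes. Not given in the sources used here are the aligner, the counter, the annotation and the use of strand. The authors deposited FPKM for each gene in each library, and their own group comparison (mean normalized count, log2 fold change, standard error and p-values, per the file headers). As the values show, these FPKM carry size factors in place of library totals. Whole reads were recovered from both tables, 100% of values above 0 within a tolerance of 0.01, and read numbers cover counting error only, since PCR duplicates count as reads. Totals of 3414257 to 7732674 reads leave little counting error for most members.

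The members and gene lists were chosen with earlier results of these data known. Groups and replicate numbers came from the labels. The main test was limma (version 3.58.1, R 4.3.3, intensity trend) on log2(FPKM + 0.5), two-sided, over genes with 1 FPKM or more in at least 3 libraries, with Benjamini-Hochberg adjustment over all of them and calls under 0.05; such fold changes understate those of low genes. Scripts were tested on simulated data. Deviations of same-numbered libraries from their group means correlated across genes at 0.472, 0.443 and 0.186, each above 0.1, before any trend was removed; the pairing comes from the data and not the labels, and replicate number entered a further fit as a block. Over the members alone these correlations were 0.10, 0.35 and -0.04. GC content and coding sequences came from GENCODE M21 on GRCm38, the build of mm10, with lengths implied by reads per FPKM; loess (span 0.3) served to remove the trends in each library. Named genes were the P stalk, the 5S pair, Rpsa and the X-linked members; the 5 smallest p in each direction; the 5 highest and 5 lowest means; the 5 largest and 5 smallest excesses of replicates 2; and up to 3 genes of each other list. A few of these are not reported here. Values of Rpl4, Rpl35, Rps3, Rps19, Rps20, Rps24, Rps27l, Bop1, Nop2, Gar1, Nolc1, Rptor, Tek, Emcn, Ttn, Tnnt2, Alas2 and Malat1 were added after they were seen.

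Alternatives were other pseudocounts (0.1 and 1), filters, scalings, the replicate block, loess corrections, library weights, no intensity trend, voom on recovered reads and each library left out; loess on GC content alone and leaving out both replicates 3 were added after seeing the data. Library weights were estimated gene by gene, since the default estimate did not converge.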

Additional observations from a re-analysis of the deposited data

How the results depend on the processing

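Under all 23 alternatives 0 members were called between the groups, and the members' median log2 fold change lay between -0.43 and 0.21. Its sign changed, within the spread between libraries, with the set of libraries and with the correction: it was -0.43 without wildtype-labelled replicate 1, -0.38 without knockout-labelled replicate 2, -0.38 with library weights, 0.11 without wildtype-labelled replicate 3, 0.10 with GC and length trends removed, and 0.21 without both replicates 3. With the replicate number as a block the median was -0.09 and no call differed. Members whose groups did not overlap, 0 in the main fit, are given with the share of all genes in the same setting. They numbered 2 higher with a common total (4.54%); 4 higher and 1 lower with quantile normalization (4.61% and 5.59%); 5 higher and 1 lower with the length trend removed (6.05% and 6.0%); 5 and 1 with GC and length trends removed, with and without the block (7.12% and 7.61%); and 1 higher without both replicates 3 (12.5%). With 1 library left out they numbered from 0 to 20 higher, 20 without wildtype-labelled replicate 2 (11.4%), and from 0 to 17 lower, 17 without wildtype-labelled replicate 1 (17.4%). Replicate number was called for 7 members with library weights (5.07% of all genes), for 69 without both replicates 3 (22.3%), and for 0 to 75 with 1 library left out, 75 without knockout-labelled replicate 3 (55.9%) and 59 without wildtype-labelled replicate 3 (10.9%). Of all 75 fold changes, 33 reversed in sign without wildtype-labelled replicate 3, 39 without both replicates 3 and 27 with library weights. Over the 16 members whose fold changes are printed, 18 of 367 values reversed. With library weights Rpl7 was -0.0496, Rps6 -0.0194, Rpl11 -0.19, Rpl36a -0.45 and Rpl10 -0.25. With the GC trend removed Rpl10 was -0.0483. Without both replicates 3 Rplp1 was 0.18, Rplp2 0.0236, Rpsa 0.14, Rpl36 0.16 and Rpl39 0.20. With 1 library left out Rplp1 ranged from -1.38 to 0.0185, Rpsa from -0.9997 to 0.0306, Rpl39 from -1.14 to 0.0443, Rpl11 from -0.22 to 0.44 and Rpl10 from -0.23 to 0.23. The cause was not tested. With 3 libraries a group, the intervals include 2-fold differences for many members, and reads limit Rps27, Rpl30 and Rpl34.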
